A study of Mus musculus with 6 samples.

Results

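The clustered protocadherins are 57 protein-coding genes among the 53379 genes counted in newborn mouse cortex. They were taken by symbol as every protein-coding gene whose name begins with Pcdha, Pcdhb or Pcdhg followed by a digit, a, b or c. They lie head to tail on chromosome 18 (mm10) in 3 clusters. The 14 alpha genes span 36930184 to 37187661, the 22 beta genes 37264938 to 37524479 and the 21 gamma genes 37661793 to 37841873. The identifiers ENSMUSG00000007440 and ENSMUSG00000102206 both carry the symbol Pcdha11, so these genes are given with their identifiers.

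The study compared cortex of mice heterozygous for the transcription factor gene Npas3 (Npas3+/-) with wild-type (WT) cortex, with 3 bulk RNA-seq libraries of total RNA per genotype. All 6 libraries came from postnatal day 0 and all are labelled with the strain C57BL/6. The labels describe neither the Npas3 allele nor whether each replicate was a different animal. A p-value here therefore reflects the scatter among these libraries, which may be technical.

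Clustered protocadherins are cell-surface proteins of the cadherin superfamily. Each neuron uses its own small set of them, and matching sets on facing membranes bind each other, which lets a neuron tell its own branches from those of its neighbours. In the alpha and gamma clusters each gene has its own promoter and a large variable exon for the extracellular part, which is spliced to a set of constant exons for a shared cytoplasmic tail. Beta genes have no constant exons. Most isoforms are chosen at random in each cell through CTCF and cohesin, whereas the C-type genes at the end of the alpha and gamma clusters are used more evenly across cells.

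The exon structure limits what a count per gene can mean. In GENCODE M21, whose versioned identifiers matched those of all 57 genes, the 14 alpha genes share constant exons at 37156155 to 37156213 (59 bases), 37159265 to 37159353 (89 bases) and 37184946 to 37187657 (2712 bases). The gamma genes share 37825021 to 37825079 (59 bases), 37833265 to 37833353 (89 bases) and 37839903 to 37841873 (1971 bases). The exon sequence that an alpha or gamma gene shared with no other counted gene on its strand, called own exon here, was 2346 to 4606 bases in the alpha cluster and 1570 to 4614 bases in the gamma cluster. The beta genes shared nothing except 455 bases between Pcdhb21 and Pcdhb22. Outside the constant exons, Pcdhgb1 and Pcdhga4 shared 1038 bases, Pcdhgb4 and Pcdhga8 shared 108 bases, and Pcdha1 and Pcdha4 shared 4 bases. The models of Pcdha1 and Pcdha4 end at 37187661 and the other alpha models at 37187657. How reads in shared exons were assigned is not given in the sources used here. A read from a constant exon cannot be assigned to 1 isoform by its position alone, so levels of single alpha and gamma genes are uncertain where such reads may have been counted. The 3 readthrough models that run from the alpha cluster into the gamma cluster (Gm42416, Gm37013 and Gm37388) had 0 counts in every library.

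Library totals ran from 67378231 to 87811574 counts. Npas3 stood at 14.96, 14.13 and 8.61 CPM (read counts normalised to library size with TMM factors) in the Npas3+/- libraries and at 23.4, 28.4 and 25.7 CPM in WT, without overlap (log2 fold change -1.04, SE 0.205, edgeR quasi-likelihood adjusted p = 0.27, DESeq2 adjusted p = 0.000175). All 12 cortical projection neuron markers were detected, at summed levels of 2834 to 3807 CPM, and 5 of 10 hindbrain and serotonergic markers, Fev among them, had 0 counts. Of the same list, Slc6a4 had 175 to 701 and Tph2 50 to 119 counts. Striatal marker levels differed between libraries of 1 genotype. The score of a striatal marker list, the mean log2 deviation of its 15 genes, was 1.086, 1.351 and -0.463 in WT replicates 1 to 3, against -1.201, -1.204 and 0.431 in Npas3+/-. With this score as a covariate, signs were compared only for the members named by rule. They turned for Pcdhga2 (to -0.969), ENSMUSG00000007440 (to 0.101), Pcdhgc4 (to 0.091) and Pcdhb1 (to 0.26), without a call. In bulk tissue, fewer cells of a type and less RNA per cell cannot be told apart.

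No clustered protocadherin passed the threshold for a genotype difference. Of the 57 genes, all of which passed the filter on low counts, 0 reached an adjusted p under 0.05 in edgeR, where 0.0377% of the 21244 genes tested did (0.0282% higher and 0.00941% lower in Npas3+/-). DESeq2 also called 0 of the 57 and gave no adjusted p for 3 of them, whereas it called 2.41% of all genes. At an unadjusted p under 0.05 in edgeR there were 6 of the 57, or 10.5%, against 12.1% of all genes. Pcdhgb4 was the 1 higher in Npas3+/-, where 6.29% of all genes were, and Pcdhb9, Pcdhb18, Pcdhb19, Pcdhga1 and Pcdhgb2 were the 5 lower, where 5.84% of all genes were. The members' own shares were 1.75% higher and 8.77% lower.

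Read as sums, the alpha and beta clusters had slightly lower means in Npas3+/-. The alpha genes summed to 236, 244 and 268 CPM in the Npas3+/- libraries and to 259, 282 and 244 CPM in WT, or 249 ± 16.7 against 262 ± 18.9 (SD, n = 3), and the groups overlapped. The log2 ratio of the means was -0.07, below the pooled SD of 0.1 within genotypes. The beta genes summed to 214, 252 and 235 CPM in Npas3+/- and 245, 266 and 267 CPM in WT, a log2 ratio of -0.15 against a pooled SD of 0.097. Here too the groups overlapped, since Npas3+/- replicate 2 lay above WT replicate 1. Without Pcdhb22, whose level in 1 library is described below, the beta sums were 213, 223 and 210.4 CPM against 222, 239 and 237 CPM, a log2 ratio of -0.11 against a pooled SD of 0.05, and they overlapped only through Npas3+/- replicate 2 and WT replicate 1. With 1 library left out, the alpha ratio ran from -0.013 (without WT replicate 2) to -0.12 (without Npas3+/- replicate 3), with -0.03 without Npas3+/- replicate 1 and -0.114 without WT replicate 3. The beta ratio ran from -0.089 (without Npas3+/- replicate 1) to -0.205 (without Npas3+/- replicate 2). With 3 libraries against 3, an exact permutation test could not go below 0.1, and no test was made on the sums.

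The gamma sum did not follow genotype and split the libraries in another way. It was 947, 949.8 and 790.4 CPM in the Npas3+/- libraries, against 992, 698 and 696 CPM in WT. WT replicate 1 was therefore the highest of all 6 libraries and the other two WT libraries the lowest. Pcdhgb8, which the annotation classes as a polymorphic pseudogene and which is not among the 57, lies within the cluster and shares its constant exons. With it the sums were 948, 959 and 995 CPM in Npas3+/- and 993, 699.9 and 698 CPM in WT, so that 4 libraries lay close together and WT replicates 2 and 3 below them.

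That split came from a few gene models. Of the 22 gamma models, 17 end at 37841873 and 5 end at 37841870, which is 3 bases earlier: Pcdhga2, Pcdhgb1, Pcdhgb4, Pcdhga9 and Pcdhgb8. The 5 models together held 482, 462 and 439.7 CPM in the Npas3+/- libraries and 468 CPM in WT replicate 1, but 120.2 and 129 CPM in WT replicates 2 and 3. The 17 other genes summed to 467, 497 and 555 CPM in Npas3+/- and 525, 579.7 and 568 CPM in WT, 506 ± 45.0 against 558 ± 28.9 (SD, n = 3), a log2 ratio of -0.139 against a pooled SD of 0.105. With the models of the shorter end left out, the sign of the gamma ratio turned from 0.172 to -0.139, and the groups still overlapped. Leaving out 1 library moved the ratio of all gamma genes to 0.364 without WT replicate 1, to 0.087 and 0.088 without WT replicates 2 and 3, and to 0.259 without Npas3+/- replicate 3, and counting Pcdhgb8 gave 0.28.

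**Figure D1:**
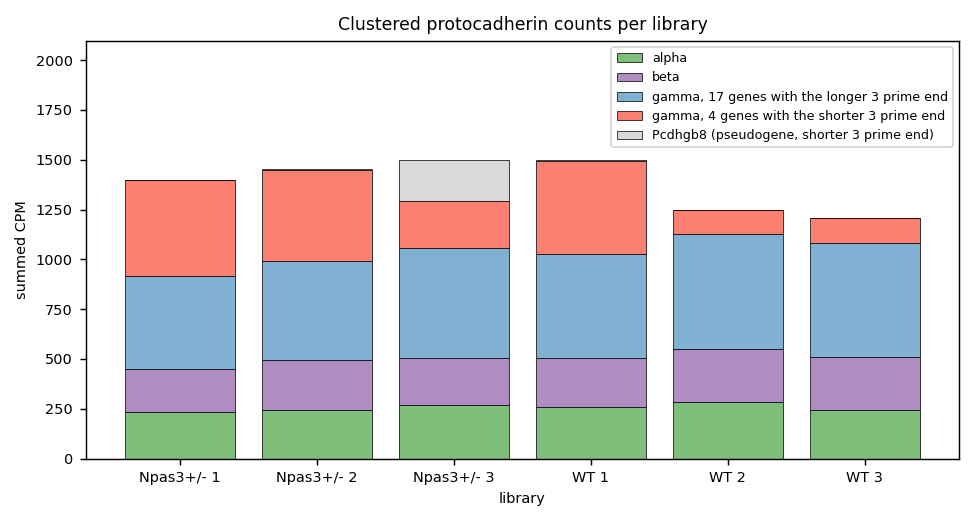
Summed CPM of the clustered protocadherins in each of the 6 libraries, as stacked bars from 0; colours mark the alpha genes, the beta genes, the gamma genes by the annotated 3 prime end of their model, and the pseudogene Pcdhgb8. The 2 gamma parts with the shorter end add up to 439.7 to 482 CPM in 4 libraries and to 120.2 and 129 CPM in WT replicates 2 and 3, while the other parts vary less.

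Within those 5 models, different genes held the highest counts in different libraries. Pcdhga2 stood at 363 CPM in Npas3+/- replicate 2 and 327 CPM in WT replicate 1, and at 42.4, 28.8, 47.5 and 44.9 CPM in Npas3+/- replicates 1 and 3 and WT replicates 2 and 3. It was thus high in 1 library of each genotype (log2 fold change 0.052, SE 1.1, edgeR adjusted p = 0.99). Pcdhgb4 was high in other libraries than Pcdhga2, at 359.9 CPM in Npas3+/- replicate 1 and 170.0 CPM in Npas3+/- replicate 3. It stood at 6.42 CPM in Npas3+/- replicate 2 and at 7.06, 18.2 and 26.5 CPM in WT, so the groups overlapped although the log2 fold change was 3.372 (SE 1.163, edgeR adjusted p = 0.338). Its raw counts were 31636, 494 and 12840 in Npas3+/- and 478, 1527 and 1903 in WT.

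Pcdhgb8 and Pcdhga9 completed the pattern. Pcdhgb8 stood at 205 CPM in Npas3+/- replicate 3, the library in which Pcdhgb4 was at an intermediate level, and at 1.59, 9.35, 1.33, 2.17 and 2.13 CPM in the others (log2 fold change 5.252, SE 1.625, edgeR adjusted p = 0.301, DESeq2 adjusted p = 0.0335, with the genotypes overlapping). Pcdhga9 was at 60.3, 51.9 and 10.8 CPM in Npas3+/- and 102, 22.1 and 15.7 CPM in WT, with its 3 highest values in Npas3+/- replicates 1 and 2 and WT replicate 1 (edgeR adjusted p = 0.957). Pcdhgb1, the fifth of these models, did not show such steps, at 17.5, 31.4 and 25.5 CPM in Npas3+/- and 30.9, 30.2 and 40.1 CPM in WT. Pcdhga9, Pcdhgb8 and Pcdhgb1 are named here after their values were seen.

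Ranked by the ratio of the highest to the lowest library, Pcdhgb8 (154), Pcdhgb4 (56.0), Pcdhga2 (12.6) and Pcdhga9 (9.46) took 4 of the first 6 places among the 22 gamma models. The others in the first 6 were Pcdhga8 (18.1) and Pcdhga4 (17.3), both of which share bases outside the constant exons with a neighbour that has the shorter end. Pcdhga8 stood at 14.3 CPM in Npas3+/- replicate 3 and 18.4 CPM in WT replicate 2, and at 1.32, 1.20, 1.61 and 1.02 CPM in the other 4 libraries. Pcdhga4 stood at 15.2, 18.1 and 1.48 CPM in Npas3+/- and 20.8, 23.4 and 25.6 CPM in WT, without overlap, and Npas3+/- replicate 3 was far below the other 5 libraries (log2 fold change -1.004, SE 0.697, edgeR adjusted p = 0.62). Both were named after their values were seen.

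**Figure D2:**
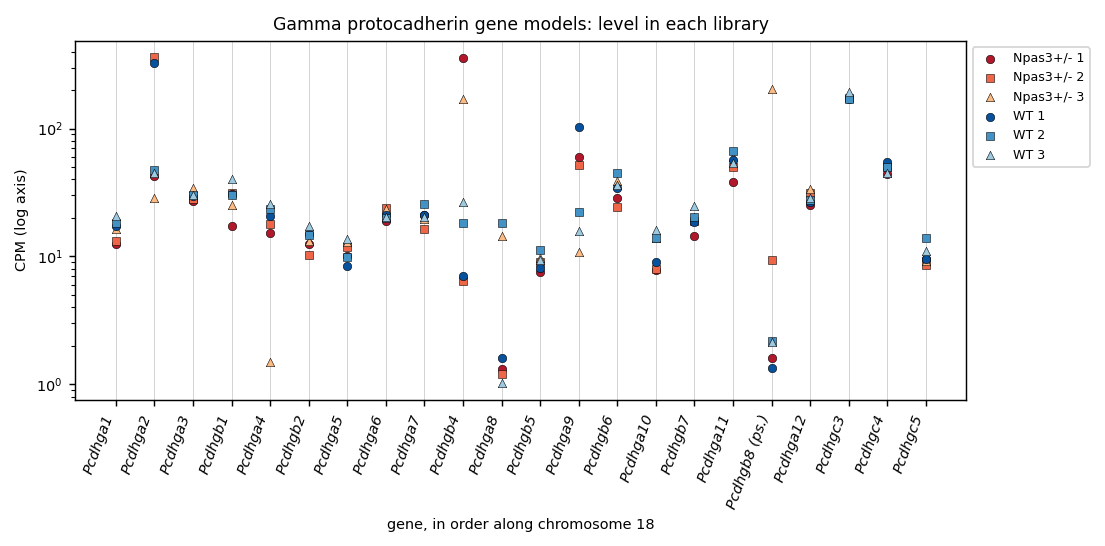
Level of each of the 22 gamma gene models in each library, as CPM on a log axis, with genes in order along the chromosome; red tones are Npas3+/- libraries, blue tones WT libraries, and (ps.) marks the pseudogene. Pcdhga2, Pcdhgb4, Pcdhga8, Pcdhga9 and Pcdhgb8 spread over about 1 order of magnitude or more with the genotypes mixed, Pcdhga4 has 1 low library, and Pcdhgc3 varies by a ratio of 1.14.

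The level of the gamma cluster gives a scale for these steps. Summed over the 17 genes with the longer end, the level was 154 to 197 CPM per kb of own exon, and at that level the 2119 bases of gamma constant exon would hold 327 to 418 CPM in the 6 libraries. That value was highest in WT replicates 2 and 3, at 418 and 407 CPM, where the 5 models with the shorter end held 120.2 and 129 CPM. In the other 4 libraries it was 327 to 384 CPM, and the 5 models held 439.7 to 482 CPM. In the alpha cluster, the summed level of 86.0 to 105 CPM per kb would put 246 to 301 CPM on 2860 bases of constant exon, and no single alpha gene exceeded 51.1 CPM in any library. The gamma value leaves out the transcripts of the 5 other models, which share constant exons with the 17. Both values divide whole counts by own exon length, so constant exon reads, where counted, would raise them. Whether reads of the constant exons account for the steps was not tested.

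Wide ranges between libraries were counted more often in the alpha and gamma clusters than in the beta cluster. Among genes with a mean of at least 3 CPM, the highest library exceeded the lowest more than 3-fold for 3 of 13 alpha genes (23.1%), 1 of 21 beta genes (4.76%) and 5 of 21 gamma genes (23.8%). Over all 13149 genes tested at that level it did so for 2.58%, with a median ratio of 1.3, against medians of 1.73, 1.45 and 1.68 for the alpha, beta and gamma genes. The limit of 3 was chosen after the values were seen and the difference between clusters was not tested.

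Pcdhgc3 had the lowest ratio of highest to lowest library among the 22 gamma models (1.14), followed by Pcdhgc4 (1.25), while Pcdhgc5 (1.62) stood in the middle of the order. Pcdhgc3, which binds the Wnt regulator Axin1 and acts in dendrite branching of cortical neurons, was at 172, 174 and 183 CPM in Npas3+/- and 171.5, 170.0 and 194 CPM in WT. The difference lay within the spread of the libraries (log2 fold change -0.018, SE 0.065, edgeR adjusted p = 0.945). Pcdhgc4, the gamma isoform known to be needed for the survival of interneurons, stood at 44.1, 49.7 and 51.5 CPM against 55.1, 49.9 and 44.9 CPM in WT (log2 fold change -0.045, SE 0.098, edgeR adjusted p = 0.902). Pcdhac2, known for its role in the spacing of serotonergic axons, stood at 43.4, 41.1 and 51.1 CPM against 42.7, 50.4 and 40.7 CPM (log2 fold change 0.019, SE 0.115, edgeR adjusted p = 0.967). The genotypes overlapped for all 3.

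Pcdhac1 and Pcdhgc5 were lower than the other C-type genes. Pcdhac1 was at 2.88, 3.29 and 3.48 CPM in Npas3+/- and 3.28, 2.51 and 3.23 CPM in WT (log2 fold change 0.097, SE 0.189). Pcdhgc5, which associates with GABA-A receptors at synapses, stood at 9.500, 8.504 and 9.165 CPM in Npas3+/- and 9.59, 13.8 and 11.0 CPM in WT. The genotypes did not overlap for Pcdhgc5, but Npas3+/- replicate 1 and WT replicate 1 were nearly equal, and the log2 fold change of -0.342 (SE 0.154) did not pass (edgeR adjusted p = 0.432). The 5 C-type genes summed to 282 ± 13.8 CPM in Npas3+/- and 287.5 ± 5.73 CPM in WT (SD, n = 3), a log2 ratio of -0.027.

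Per length, the C-type gene Pcdhgc3 was also the highest of the genes without large steps. It averaged 52.5 CPM per kb of own exon, ahead of Pcdhga11 at 20.6, Pcdhac2 at 14.8, Pcdhgc4 at 14.1 and Pcdhgb6 at 13.5 CPM per kb. Pcdhga2 averaged 55.3 and Pcdhgb4 27.3 CPM per kb, but these means rest on the libraries described above, and their lowest libraries stood at 11.2 and 1.79 CPM per kb. The lowest gamma gene was Pcdhgb5 at 1.99 CPM per kb, and Pcdhgc5 was at 2.23. In the order of levels, Pcdhac2, Pcdhgc4 and Pcdhgb6 did not differ beyond the spread between libraries, while the lowest library of Pcdhgc3 lay above the highest of each of them.

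In the alpha cluster, the highest per length after Pcdhac2 were Pcdha2 at 11.6 and Pcdha6 at 9.64 CPM per kb, and the lowest was Pcdha8 at 0.722 CPM per kb. This order leaves models without counts out of the own exon length. With every annotated model on the strand, Pcdha4 had 494 own bases in place of 2904. Its 5.95 CPM per kb and its place in the order depend on that choice. Models on the other strand were also left out, although the strand setting is not given. With every annotated model on both strands, ENSMUSG00000102206 had 1268 own bases in place of 4606 and Pcdhga11 1256 in place of 2637. Pcdhgc3 had 1821 in place of 3380, and Pcdhga10 had 0. The values per kb of these genes and their places in the order rest on that choice. The cluster median was 6.895 CPM per kb, between 8.14 in the gamma and 2.21 in the beta cluster. The whole count of a gene was divided by its own exon length. Constant exon reads, where counted, would therefore raise alpha and gamma values and not beta values, so the clusters are not compared on equal terms. Among beta genes, Pcdhb20 (6.53 CPM per kb), Pcdhb17 (5.99) and Pcdhb7 (4.74) were the highest. Pcdhb1, the first gene of the cluster, was the lowest at 0.0552 CPM per kb, with 25, 11 and 0 counts in Npas3+/- and 13, 20 and 0 counts in WT. A count of 0 does not show that the gene is silent.

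**Figure D3:**
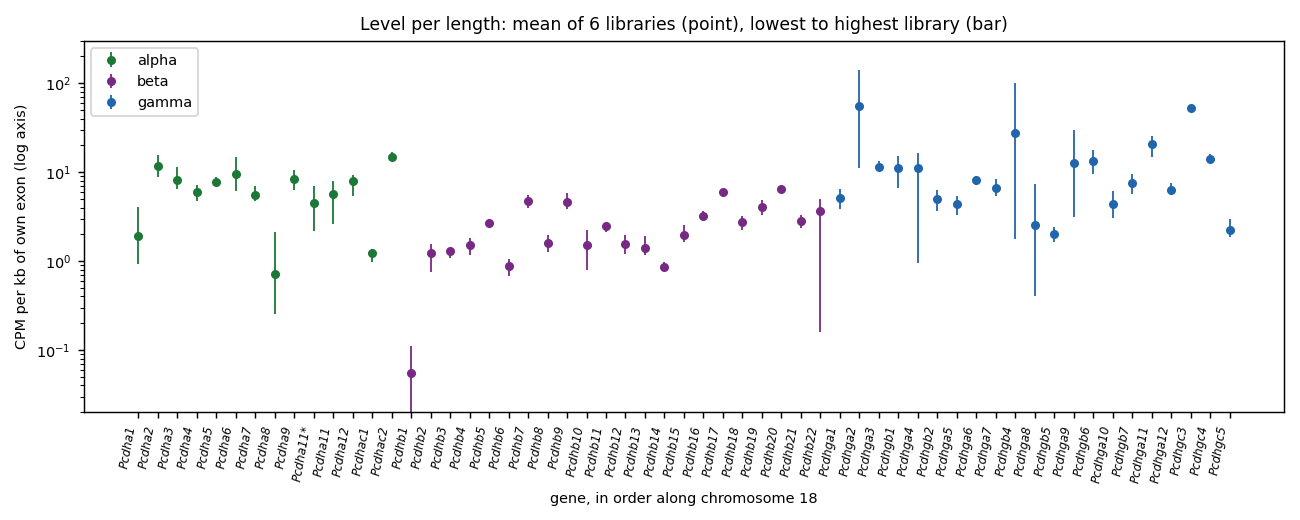
Level of the 57 genes per kb of own exon (CPM per kb, log axis), with genes in order along the chromosome and colours for the 3 clusters; points are means of 6 libraries and bars run from the lowest to the highest library. Beta genes lie below most alpha and gamma genes, Pcdhgc3 at 52.5 CPM per kb has a narrow bar, and the bar of Pcdhb1 runs off the axis because 2 libraries are at 0. Reads of constant exons, where counted, would raise alpha and gamma values and not beta values.

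In all 14 alpha genes the genotypes overlapped, whereas 18.9% of all genes tested did not overlap, in either direction. Of the alpha genes 7 had a positive and 7 a negative log2 fold change, with a median of -0.016 against -0.009 over all genes tested. The range ran from -0.667 in Pcdha1 to 0.91 in Pcdha8, both of which rested on 1 library. Pcdha1 was at 4.82, 2.32 and 3.76 CPM in Npas3+/- and 2.78, 4.53 and 10.02 CPM in WT, so WT replicate 3 alone was high (edgeR adjusted p = 0.63). Pcdha8 was at 0.626, 1.10 and 5.28 CPM in Npas3+/- and 0.990, 1.66 and 1.07 CPM in WT. Without Npas3+/- replicate 3 its log2 fold change turned to -0.516, and the median of the alpha genes to -0.243.

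The other alpha genes with the smallest p-values were Pcdha2, Pcdha12 and the Pcdha11 gene ENSMUSG00000007440. Pcdha2 was at 24.9, 23.4 and 28.3 CPM in Npas3+/- and 22.2, 39.0 and 36.0 CPM in WT (log2 fold change -0.344, SE 0.201, edgeR adjusted p = 0.546). Pcdha12 was at 13.4, 17.5 and 23.0 CPM against 22.5, 19.7 and 23.1 CPM (log2 fold change -0.277, SE 0.188). WT replicate 1 had the lowest Pcdha2 value of all, and Npas3+/- replicate 3 had a Pcdha12 value within the WT range. ENSMUSG00000007440 was at 5.48, 11.2 and 9.88 CPM against 17.4, 16.0 and 6.84 CPM (log2 fold change -0.599, SE 0.383), and the neighbouring ENSMUSG00000102206 at 28.5, 33.0 and 27.4 CPM against 36.8, 20.3 and 11.9 CPM (log2 fold change 0.365, SE 0.352). Pcdha6, the third highest alpha gene per length, was at 24.7, 18.9 and 20.4 CPM against 15.3, 37.4 and 28.3 CPM. Its lowest and its highest value were both in WT.

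**Figure D4:**
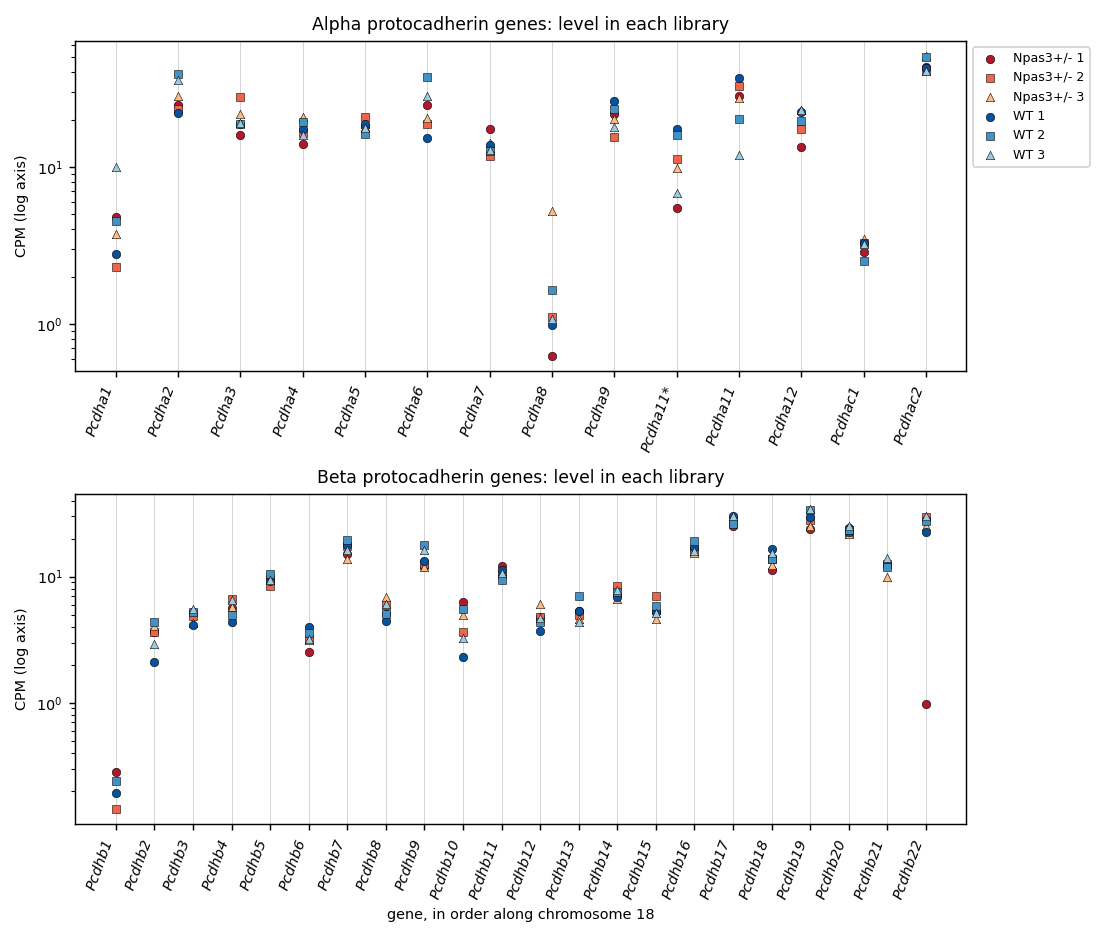
Level of each alpha gene (upper panel) and beta gene (lower panel) in each library, as CPM on a log axis, with genes in order along the chromosome; red tones are Npas3+/- and blue tones WT libraries, and Pcdha11* is ENSMUSG00000007440. Pcdhb22 has 1 library at 0.978 CPM against 22.7 to 30.4 CPM in the other 5, and the values of Pcdhb1 at 0 in 2 libraries cannot be drawn on this axis.

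The beta cluster has no constant exons, so its counts are free of that limit, although related beta exons are similar in sequence. Its log2 fold changes had a median of -0.053, with 8 higher and 14 lower. For 3 of the 22 genes every Npas3+/- library was below every WT library, 13.6% against 9.18% of all genes, and for 1, Pcdhb12, all lay above, where 9.7% of all genes did. Pcdhb19 was at 23.8, 28.3 and 25.3 CPM in Npas3+/- and 29.4, 33.7 and 34.3 CPM in WT (log2 fold change -0.332, SE 0.1, edgeR adjusted p = 0.29). Pcdhb9 was at 11.8, 12.6 and 11.97 CPM against 13.3, 17.7 and 16.3 CPM (log2 fold change -0.375, SE 0.127, edgeR adjusted p = 0.33), and Pcdhb18 at 11.3, 13.7 and 12.4 CPM against 16.4, 13.9 and 15.3 CPM (log2 fold change -0.286, SE 0.117, edgeR adjusted p = 0.389). The gap between the genotypes was narrowest for Pcdhb18, between Npas3+/- replicate 2 and WT replicate 2.

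Other beta genes differed less. Pcdhb7 was at 15.1, 17.3 and 13.7 CPM in Npas3+/- and 17.9, 19.3 and 16.3 CPM in WT (log2 fold change -0.216, SE 0.121), with overlap. Pcdhb20 was at 24.3, 22.2 and 21.9 CPM against 22.4, 23.4 and 25.2 CPM (log2 fold change -0.051, SE 0.088), and Pcdhb17 at 25.1, 27.8 and 27.9 CPM against 30.4, 26.2 and 30.05 CPM (log2 fold change -0.102, SE 0.092). The genotypes overlapped for both. Pcdhb12 was at 4.77, 4.78 and 6.01 CPM in Npas3+/- and 3.68, 4.38 and 4.67 CPM in WT (log2 fold change 0.289, SE 0.173).

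Pcdhb22, at the end of the beta cluster, stood apart in 1 library. It had 86 counts in Npas3+/- replicate 1 and 1535 to 2325 counts in the other 5 libraries, or 0.978 CPM against 29.5, 25.0, 22.7, 27.7 and 30.4 CPM. Its neighbour Pcdhb21, with which it shares 455 bases, was at 12.03 CPM in that library and at 9.99 to 14.0 CPM in the others. Pcdhb12, Pcdhb21 and Pcdhb22 were named after their values were seen. The log2 fold change of Pcdhb22 was -0.544 with an SE of 0.876.

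In the gamma cluster 16 of 21 genes, or 76.2%, had negative log2 fold changes, against 51.8% of all genes, with a median of -0.237. The Npas3+/- libraries were all below the WT libraries for 4 genes (Pcdhga1, Pcdhgb2, Pcdhga4 and Pcdhgc5), 19.0% against 9.18% of all genes. They were all above for 0, where 9.7% of all genes were. Counting both directions, the genotypes did not overlap for 18.9% of all genes, close to the gamma share. Over all 57 members, 7 lay below (12.3%) and 1 above. Pcdhga1 was at 12.6, 13.2 and 16.4 CPM in Npas3+/- and 17.4, 18.3 and 20.8 CPM in WT (log2 fold change -0.42, SE 0.131, edgeR adjusted p = 0.305). Pcdhgb2 was at 12.5, 10.2 and 13.3 CPM against 14.9, 14.7 and 17.2 CPM (log2 fold change -0.381, SE 0.131, edgeR adjusted p = 0.338). Pcdhgb5, the lowest gamma gene per length, was at 7.52, 9.13 and 9.68 CPM against 8.16, 11.2 and 9.46 CPM, with overlap (log2 fold change -0.13, SE 0.161).

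The gamma median moved when 1 library was left out. Npas3+/- replicate 1 had the lowest value for 10 of the 21 genes, and without it the median was -0.106. Adjusted for the striatal score it was -0.072, and that of the alpha genes 0.1. The radial glia and astrocyte markers had negative log2 fold changes in 14 of 15 genes, with a median of -0.373. None passed the adjusted threshold in edgeR, but 12 of 15 (80%) were lower at an unadjusted p under 0.05 against 5.84% of all genes, and DESeq2 called 4 lower (Vim, Fabp7, Slc1a2 and Ptprz1). These markers stood at summed levels of 1481 to 1777 CPM against 2015 to 2132 CPM in WT, with none at 0. Interneuron markers summed to 760 to 924 CPM against 959.6 to 1154 CPM, of which Reln alone held 205 to 235 CPM against 245 to 342 CPM. At an unadjusted p under 0.05 in edgeR, 4 of 13 were lower (30.8%) and Npy was higher (7.69% against 6.29% of all genes). DESeq2 called Gad2 and Reln lower. Negative log2 fold changes also prevailed for microglia (10 of 10 markers), striatum (14 of 15), endothelium (7 of 10), olfactory bulb (5 of 7) and choroid plexus (4 of 6). Positive ones prevailed for cortical projection neurons (9 of 12), oligodendrocyte lineage (7 of 9), meninges (6 of 9), blood (5 of 5) and hindbrain (2 of 2). Of all genes, 51.8% were negative. The part of any of these cells in the gamma values was not tested.

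**Figure D5:**
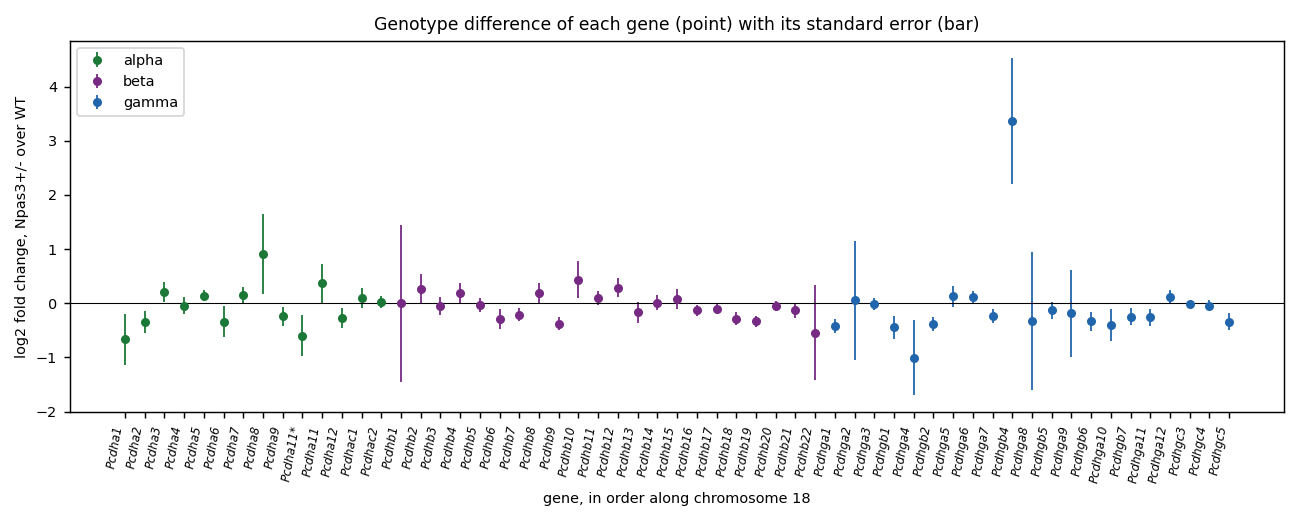
Log2 fold change of Npas3+/- over WT for the 57 genes, in order along the chromosome and coloured by cluster, with bars of 1 standard error from edgeR; Pcdha11* is ENSMUSG00000007440. Most genes lie within 0.5 of 0, 16 of 21 gamma genes lie below 0, and the widest bars belong to Pcdhb1, Pcdhga8, Pcdhgb4 and Pcdhga2.

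Genes that act with the clustered protocadherins were read from 3 lists. Of 20 regulators of isoform choice, which include CTCF, cohesin and its loader, DNA methyltransferases and silencing factors, 0 passed the threshold in edgeR, 11 were higher and 9 lower, and the median log2 fold change was 0.015. At an unadjusted p under 0.05, 1 was higher (5% against 6.29% of all genes) and 4 lower (20% against 5.84%). Ctcf, named after its values were seen, was at 125, 117 and 110.3 CPM in Npas3+/- and 109, 113 and 119.7 CPM in WT, with overlap. The smallest p-values were those of Hells, a chromatin remodeller that aids DNA methylation, at 11.6 ± 0.608 against 14.8 ± 1.09 CPM (SD, n = 3; log2 fold change -0.349, edgeR adjusted p = 0.29), and the cohesin subunit Stag2 at 97.2 ± 3.05 against 108 ± 1.60 CPM (SD, n = 3; log2 fold change -0.157, edgeR adjusted p = 0.324).

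Of 23 signalling and processing partners, among them the kinase Ptk2, the WAVE complex and the protease Adam10, 0 passed in edgeR, with 12 higher, 11 lower and a median of 0.005. At an unadjusted p under 0.05, 4 were higher (17.4% against 6.29% of all genes) and 1 lower (4.35% against 5.84%). Celsr3, a cadherin of the Flamingo family needed for axon tract formation, was at 474, 458 and 424 CPM in Npas3+/- and 346, 350.0 and 399 CPM in WT (log2 fold change 0.308, SE 0.07, edgeR adjusted p = 0.276, DESeq2 adjusted p = 0.0248). The genotypes did not overlap for Celsr3. Nlgn2, the neuroligin of inhibitory synapses, was at 408, 418 and 411 CPM against 341, 360.1 and 375 CPM, also without overlap (log2 fold change 0.201, SE 0.049, edgeR adjusted p = 0.276). Neither passed in edgeR.

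The 12 non-clustered protocadherins, related genes outside the 3 clusters, were 9 higher and 3 lower with a median of 0.057, and 0 passed or reached an unadjusted p under 0.05 in edgeR. Pcdh15, better known for hair cells of the inner ear, was at 31.1, 27.8 and 32.4 CPM in Npas3+/- and 26.1, 22.5 and 30.4 CPM in WT (log2 fold change 0.211, SE 0.123). Pcdh20 was at 10.4, 13.1 and 12.9 CPM against 10.7, 9.81 and 10.9 CPM (log2 fold change 0.211, SE 0.128). The genotypes overlapped for both.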

How the data were processed

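Raw counts per gene for the 6 libraries were taken from the table the authors deposited. The submitters' processing notes name mm10, HISAT2 2.1.0, featureCounts and Trimmomatic 0.3.8. The annotation, strand setting and handling of reads on several genes are not given in the sources used here. Table columns marked NP were taken as Npas3+/-, the only genotype besides WT. Identifiers were matched to GENCODE M21 (53274 of 53379), which gave symbols, positions and exon lengths. Own exon is sequence shared with no other gene on the strand that had a count.

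Counts were analysed with edgeR 4.0.16 in R 4.3.3 (filterByExpr, TMM, glmQLFit and glmQLFTest on genotype), with Benjamini-Hochberg adjustment over 21244 genes. Dividing the log2 fold change by the root of the F statistic gave its SE. Steps were tested on simulated data. Library pairs of a genotype differed by a chi-square of 41.9 or more per gene, so none repeated another.

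The members and lists were chosen with earlier results of these data known. Named genes are Npas3, the C-type genes, in each cluster the 3 highest and the lowest per kb of own exon and the 4 smallest p-values, and the 2 smallest p-values of each pathway list; others are marked as chosen after their values were seen. Alternatives were DESeq2 1.42.0, limma-voom (limma 3.58.1), scaling by RLE or upper quartile, other filters on low counts, a block on replicate number, a GC correction (lowess, span 0.4), a striatal score as covariate, and each library left out. Sequences of these genes are not printed.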

Additional observations from a re-analysis of the deposited data

Results flagged for a closer look

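In 3 of the 57 genes, 1 library stood apart from the other 5 when all 6 were compared regardless of genotype. The gap to the nearest library, as a share of the whole range of CPM, was 0.674 for Pcdha1, where WT replicate 3 was high, 0.779 for Pcdha8, where Npas3+/- replicate 3 was high, and 0.739 for Pcdhb22, where Npas3+/- replicate 1 was low. Each share lies above Dixon's critical value for 6 libraries. Chance alone passes it in about 1 in 20 genes, and 57 were examined.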

How the results depend on the processing

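The number of clustered protocadherins past the threshold was 0 in every alternative run, each library left out included, with lowest adjusted p-values from 0.0792 (DESeq2) to 0.823 (edgeR with the striatal covariate). Over all genes, calls numbered 8 in edgeR, 511 with DESeq2, 3 with the replicate block, 3 with the GC correction together with the block, 5 with the striatal covariate, and 7 to 16 with 1 library left out, highest without WT replicate 1. Same-numbered libraries did not deviate together (r = 0.0368, -0.03 and -0.0879) and not every library correlated best with its own number, so the block rests on a shared number only. The alpha median was 0.1 with the striatal covariate and -0.243 (without Npas3+/- replicate 3) to 0.023 with 1 library left out. The gamma median was -0.072 with that covariate and -0.298 to -0.106 (without Npas3+/- replicate 1) with 1 library left out. The log2 ratio of the gamma sums was -0.139 without the 5 models with the shorter end, an alternative chosen after seeing the data. Fold changes of single genes were compared only for the members named by rule. Among these, signs turned without a call for Pcdhga2 (-0.191 with limma-voom, -0.348 with the block, -0.382 with GC correction and block, -0.969 with the covariate), Pcdhb1 (0.012 with the GC correction, 0.26 with the covariate), ENSMUSG00000007440 (0.101) and Pcdhgc4 (0.091), both with the covariate. With 1 library left out, the log2 fold change ranged from -0.516 to 1.362 for Pcdha8, -0.017 to 0.173 for Pcdhac1, -0.075 to 0.117 for Pcdhac2, -0.985 to 0.578 for Pcdhb1, -0.098 to 0.0 for Pcdhb20, -1.968 to 1.65 for Pcdhga2, -0.052 to 0.049 for Pcdhgc3 and -0.112 to 0.032 for Pcdhgc4. The causes were not tested. Of the genes named by rule, DESeq2 placed Npas3 and Celsr3 past the threshold. It also called Pcdhgb8, 4 radial glia and astrocyte markers, and the interneuron markers Gad2 and Reln. From the other marker lists it called the olfactory bulb markers Nrsn1 and Pbx3 lower and the oligodendrocyte lineage marker Olig2 higher. The depth leaves Pcdhb1, with at most 25 counts in a library, without a usable fold change.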

Other observations

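Antisense and noncoding transcripts within the clusters were counted at low levels and enter no comparison. Gm10545, which overlaps the Pcdha11 gene ENSMUSG00000102206 and Pcdha12 on the other strand, had 215, 259 and 89 counts in Npas3+/- and 91, 637 and 55 counts in WT. Gm38182, which lies over the gamma constant exons on the same strand, had 180 counts in Npas3+/- replicate 3, 29 in WT replicate 1 and 0 in the other 4 libraries. BC037039, antisense to the start of Pcdhgc3, had 665, 329 and 655 counts in Npas3+/- and 600, 464 and 391 in WT. Taf7, a gene without introns that lies between the beta and gamma clusters and encodes a general transcription factor subunit, had 1256, 1196 and 1203 counts in Npas3+/- and 963, 1257 and 1312 in WT.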
